A study of Homo sapiens with 24 samples.

Results

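EFR3B and the genes of the plasma membrane phosphatidylinositol 4-kinase complex were followed in HepG2 cells, an established human liver cancer line, treated with BET inhibitors. The set held 7 of the 26475 gene symbols counted: EFR3A, EFR3B, PI4KA, TTC7A, TTC7B, FAM126A and FAM126B, and all 7 were found in the count files. EFR3B was chosen because it was among the genes most raised by ABBV-075 against DMSO, and the other 6 genes because their proteins form the complex with it. The values of that contrast, and others that use the ABBV-075 libraries without interferon, are therefore given as a description with no test. The low EFR3B counts of the DMSO libraries were part of the choice as well, so EFR3B is also given without a test wherever it is compared with DMSO.

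Total RNA was sequenced in 24 libraries, 3 for each of 8 groups. Without cytokine, cells received DMSO, ABBV-075 (50 nM) or ABBV-744 (50 or 500 nM), and the other 4 groups received interferon gamma (IFNg) by itself or with each of these inhibitor doses. ABBV-075 binds both bromodomains of the BET proteins, which read acetylated histones, whereas ABBV-744 prefers the second bromodomain. All groups were the same cell line in the same medium, and the labels give neither a treatment time nor an IFNg dose, so doses were matched but times could not be checked. The labels number the samples of each group 1 to 3 without saying whether these were separate cultures, and p-values measure the spread between these libraries only.

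Phosphatidylinositol 4-phosphate (PI4P) at the plasma membrane is made by PI4KA, a large soluble lipid kinase that has to be brought to the membrane. EFR3 proteins, lipid-modified at their N-terminus, sit on the inner face of the membrane as the anchor. TTC7 proteins link the anchor to the kinase, and FAM126 proteins (FAM126A is also called hyccin) stabilise the assembly of TTC7 and PI4KA. The PI4P made there is the precursor of PI(4,5)P2 and is exchanged for other lipids at contacts with the endoplasmic reticulum. EFR3A and EFR3B, TTC7A and TTC7B, and FAM126A and FAM126B are alternative versions of the same subunit, and EFR3B is best known from brain.

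EFR3B lies at chr2:25042076-25159135 on the plus strand of GRCh38, and TTC7A (chr2:46915869-47076137, plus strand) and FAM126B (chr2:200973718-201071671, minus strand) are on the same chromosome. PI4KA occupies chr22:20707691-20859417 on the minus strand, TTC7B chr14:90524564-90816479 on the minus strand and FAM126A chr7:22889371-23014130 on the minus strand. All 7 members are protein-coding in the GENCODE annotation (release 44).

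EFR3B and FAM126A had the largest rises of an anchor and of a stabilising subunit when ABBV-075 was given with IFNg. PI4KA had the smallest log2 fold change there among the members tested. The 250 bases before a RefSeq start are shown for these genes. They come from RefSeq (GRCh38.p14), are written 5′ to 3′ on the strand of the gene, and span chr2:25041826-25042075 (plus), chr7:23014131-23014380 (minus) and chr22:20858812-20859061 (minus).
EFR3B: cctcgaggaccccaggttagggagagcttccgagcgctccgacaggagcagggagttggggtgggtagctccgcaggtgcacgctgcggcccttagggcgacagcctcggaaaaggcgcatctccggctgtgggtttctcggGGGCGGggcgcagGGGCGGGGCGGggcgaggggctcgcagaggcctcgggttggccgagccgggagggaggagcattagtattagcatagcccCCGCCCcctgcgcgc
FAM126A: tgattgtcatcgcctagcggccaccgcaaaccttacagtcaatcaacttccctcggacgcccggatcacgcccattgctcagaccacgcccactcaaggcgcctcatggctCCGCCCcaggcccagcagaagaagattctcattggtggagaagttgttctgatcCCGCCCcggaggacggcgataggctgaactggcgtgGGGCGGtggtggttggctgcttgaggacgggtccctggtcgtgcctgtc
PI4KA: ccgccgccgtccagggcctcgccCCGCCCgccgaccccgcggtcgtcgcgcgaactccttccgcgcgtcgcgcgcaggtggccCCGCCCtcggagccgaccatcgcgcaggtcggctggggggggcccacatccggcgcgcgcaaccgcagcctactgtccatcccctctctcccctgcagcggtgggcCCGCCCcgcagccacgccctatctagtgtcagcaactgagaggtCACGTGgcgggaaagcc
Capitals mark matches, on either strand, to the GC-box letters GGGCGG, the E-box letters CACGTG that MYC and its relatives bind, the TATA box letters TATAAA, the interferon-related letters TTCNNNGAA, or the core of the interferon-stimulated response element. The stretch before EFR3B held 4 GC-boxes, 2 of which overlap by a single base in the run of capitals, and no match to the other motifs. FAM126A had 3 GC-boxes and PI4KA 3 GC-boxes and 1 E-box. A GC-box was found in 42.6% of the 35116 RefSeq promoters of this length, an E-box in 6.34%, a TATA box in 10.7%, the letters TTCNNNGAA in 6.57% and the response element core in 3.02%. CpG dinucleotides numbered 24 before EFR3B, 18 before FAM126A and 36 before PI4KA, against a median of 11 over all promoters. A further EFR3B start, whose window begins at 25042213, held 37 CpG dinucleotides and 1 GC-box. RefSeq windows were also read for TTC7A, with 4 GC-boxes and 25 CpG dinucleotides, and for TTC7B, with 5 GC-boxes and 25 CpG dinucleotides. The starts of RefSeq and GENCODE can differ. The PI4KA window lies inside the GENCODE span of the gene given above, and the TTC7B window runs into that of TTC7B. GC-boxes were found in every window read, and a match describes these letters and no binding. No window was read for EFR3A, and FAM126B was not in the table.

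Each library had 2978982 to 4304103 counts on genes, 11.95% to 16.78% of the reads, while 55.98% to 69.38% of reads aligned to several places and were not counted on genes. The liver markers ALB, AFP, APOA1, APOB, TTR, SERPINA1, FGB and TF were counted in every library. Of 7 markers of other cells, PTPRC, CD3E and COL3A1 had 0 counts in all 24 libraries, COL1A1 had 0 in 20, PECAM1 and VWF reached 5 and 4 counts, and CD68 had 25 to 86. To check the labels, IRF1, an IFNg target, rose by 4.26 on the log2 scale with IFNg (edgeR adjusted p = 4.53e-27), and HEXIM1, which BET inhibitors are known to raise, rose by 1.51 with IFNg and ABBV-075 against IFNg (edgeR adjusted p = 2.47e-14).

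Libraries differed in the counts of AT-rich relative to GC-rich transcripts. A GC index was taken for each library as the median log2 deviation of 2130 genes with less than 40% GC minus that of 3502 genes with at least 54% GC. It ran from -0.354 to -0.117 in DMSO, from -0.213 to 0.772 with ABBV-075, from -1.14 to -0.54 with ABBV-744 at 50 nM, from -0.89 to -0.27 with ABBV-744 at 500 nM and from -0.601 to -0.196 with IFNg. With IFNg and an inhibitor it was positive in all 9 libraries, from 0.17 to 0.751. The members divide by the same property. EFR3A (38.2% GC), FAM126A (37.7%) and FAM126B (36.3%) are AT-rich, EFR3B (54.2%), PI4KA (55.4%) and TTC7A (56.8%) are GC-rich, and TTC7B (52.4%) lies between these classes. Values after a correction for GC content therefore stand beside the uncorrected ones, and the part of base composition in each result beyond that correction was not tested.

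EFR3B, one of the paired membrane anchors, was close to the detection limit without an inhibitor. The DMSO libraries held 8, 10 and 8 EFR3B counts and the IFNg libraries 4, 3 and 8. With ABBV-075 at 50 nM there were 146, 154 and 136 counts, and with IFNg and ABBV-075 168, 163 and 155. ABBV-744 gave 11, 10 and 9 counts at 50 nM and 23, 22 and 34 at 500 nM. In IFNg-treated cells ABBV-744 gave 11, 5 and 9 counts at 50 nM and 20, 27 and 12 at 500 nM. All 6 ABBV-075 libraries were thus far above the other 18, of which the highest held 34 counts, and ABBV-744 at 500 nM lay in between.

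**Figure D1:**
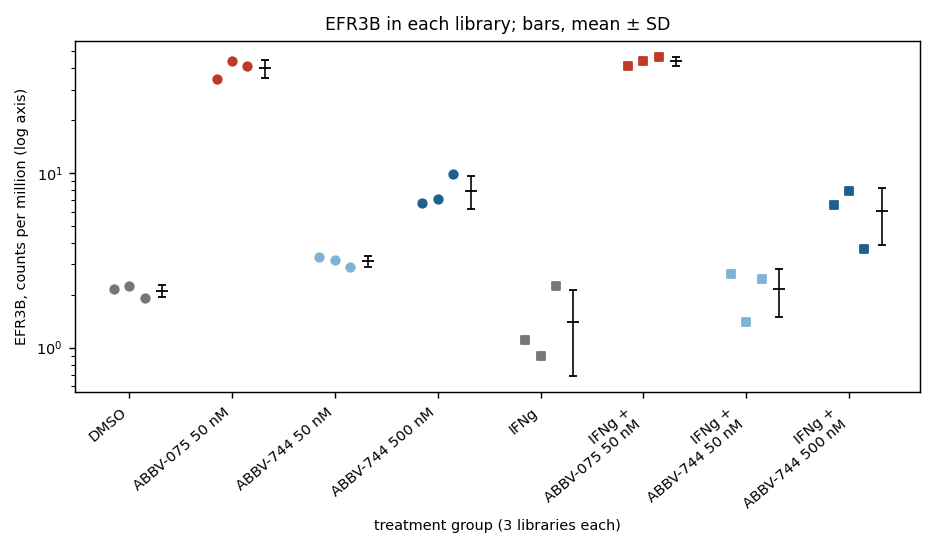
EFR3B in CPM (counts scaled to a common library size, log axis) in each of the 24 libraries, by treatment group. Points are libraries and bars the mean ± SD of 3. The 6 libraries with ABBV-075 sit between 34.8 and 46.3 CPM, the 6 with ABBV-744 at 500 nM between 3.66 and 9.9, and the other 12 at or below 3.3.

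Scaled to library size (CPM), EFR3B averaged 43.8 ± 2.61 (SD, n = 3) with IFNg and ABBV-075 and 39.9 ± 4.67 with ABBV-075 alone. Next came ABBV-744 at 500 nM with 7.93 ± 1.72 CPM, the same dose with IFNg with 6.07 ± 2.19, ABBV-744 at 50 nM with 3.12 ± 0.206, the same dose with IFNg with 2.17 ± 0.673, DMSO with 2.11 ± 0.164 and IFNg with 1.41 ± 0.727. Along this order the libraries overlapped between both ABBV-075 groups, between both groups at 500 nM, and among the last 3 groups. ABBV-744 at 50 nM alone overlapped neither neighbour.

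The EFR3B contrast that led to its choice, ABBV-075 against DMSO, had a log2 fold change of 4.22 (95% interval 3.73 to 4.70), rank 3 from the highest of 11244 genes tested. In the libraries not used for that choice, IFNg with ABBV-075 against IFNg, EFR3B rose by 4.93 on the log2 scale (SE 0.26, adjusted p = 1.91e-18), a 30.5-fold difference with an interval of 21.2 to 43.7. EFR3B passed the count filter there through the libraries with ABBV-075. The adjusted p thus belongs to a gene brought into the test by its higher group. With 4, 3 and 8 counts in the IFNg libraries, the size of the rise rests on few counts. No other of the 11187 genes tested had a larger log2 fold change. Corrected for GC content the rise was 5.20 (SE 0.23). Over the 15 other settings that kept EFR3B, the rise ranged from 4.70 to 5.41 and passed in all 15. A stricter filter, with a minimum count in every library, removed EFR3B, so it was not tested there.

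ABBV-744 raised EFR3B at the higher dose in IFNg-treated cells. There 500 nM gave a log2 fold change of 2.07 (SE 0.42, adjusted p = 0.00014), a 4.21-fold rise with an interval of 2.33 to 7.61. EFR3B passed the count filter in that comparison through the libraries at 500 nM, as the IFNg libraries held 4, 3 and 8 counts. Against DMSO, as a description, the value at 500 nM was 1.90 (SE 0.33), 3.73-fold with an interval of 2.34 to 5.95. At 50 nM against DMSO it was 0.57 (SE 0.39), and its interval of -0.24 to 1.38 allows up to a 2.60-fold rise. With IFNg the gene was too low at 50 nM for the count filter, and the fit without that filter gave 0.67 (SE 0.54, adjusted p = 0.378). IFNg by itself left EFR3B below the filter, with -0.56 (SE 0.54) against DMSO in the unfiltered fit.

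EFR3A, the other anchor (chr8:131904093-132013642, plus strand), was more abundant than EFR3B, per kilobase 3.59 against 0.198 CPM in DMSO. The DMSO libraries had 85, 100 and 89 EFR3A counts and those with IFNg 112, 102 and 95. ABBV-075 gave 191, 139 and 114 counts, and with IFNg 189, 193 and 105. ABBV-744 at 50 nM gave 73, 53 and 67 counts, but 191, 149 and 146 in IFNg-treated cells, and at 500 nM 80, 44 and 86 counts, or 160, 134 and 126 with IFNg. The high EFR3A counts were thus in the ABBV-075 libraries and in those with IFNg and an inhibitor. Of the latter the lowest, 105 with ABBV-075, lay within the range of IFNg in raw counts. Scaled to library size, that library was at 31.4 CPM, just above the 26.6 to 30.8 CPM of IFNg. In CPM, EFR3A went from 29.2 ± 2.29 with IFNg to 43.2 ± 10.7 with IFNg and ABBV-075, 42.5 ± 2.88 with IFNg and ABBV-744 at 50 nM and 43.5 ± 8.06 with IFNg and ABBV-744 at 500 nM (SD, n = 3 each).

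Against IFNg, EFR3A rose with ABBV-075 (log2 fold change 0.59, SE 0.15, adjusted p = 0.00143), with ABBV-744 at 50 nM (0.58, SE 0.13, adjusted p = 0.000299) and with ABBV-744 at 500 nM (0.57, SE 0.14, adjusted p = 0.00155). None of these remained after the GC correction, which gave 0.04, -0.15 and -0.01 with adjusted p of 0.8, 0.329 and 0.949. Against DMSO, EFR3A did not pass with ABBV-744 at 50 nM (-0.14, adjusted p = 0.595) or 500 nM (-0.08, adjusted p = 0.818). With IFNg against DMSO it was 0.40 (SE 0.14, adjusted p = 0.148), and the GC correction brought this to 0.49 (adjusted p = 0.0214).

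The balance of the anchors followed EFR3B. Per kilobase of annotated exon, where genes can be compared, EFR3B made up 5.22% ± 0.265 of the summed EFR3A and EFR3B level in DMSO and 2.80% ± 1.63 with IFNg (SD, n = 3 each). Its share was 37.0% ± 5.44 with ABBV-075 and 37.7% ± 7.35 with IFNg and ABBV-075. ABBV-744 gave 8.4% ± 1.35 at 50 nM and 18.5% ± 4.11 at 500 nM, and with IFNg 2.87% ± 0.837 and 7.51% ± 2.7. On this scale EFR3A remained the more abundant anchor in every group, and a GC correction was not applied to these shares. In CPM, without division by exon length, EFR3B and EFR3A were level with ABBV-075 (39.9 and 39.8). The same held with IFNg and ABBV-075 (43.8 and 43.2).

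PI4KA, the kinase, kept to 155 to 275 counts over the 24 libraries. DMSO libraries held 216, 268 and 253 PI4KA counts, ABBV-075 264, 255 and 246, ABBV-744 214, 214 and 208 at 50 nM and 215, 243 and 249 at 500 nM, and IFNg 220, 225 and 222. With IFNg and ABBV-075 there were 248, 253 and 275 counts. IFNg with ABBV-744 had the fewest, 178, 179 and 180 at 50 nM and 155, 185 and 157 at 500 nM. Those 6 libraries were the 6 lowest of the 24 in counts and, from 42.6 to 54.4 CPM, also in CPM.

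In the fit, PI4KA fell by 0.38 on the log2 scale with ABBV-744 at 50 nM in IFNg-treated cells (log2 fold change -0.38, SE 0.11, adjusted p = 0.00557) and by 0.30 at 500 nM (-0.30, SE 0.12, adjusted p = 0.0369). The GC correction brought these to -0.06 (adjusted p = 0.715) and -0.01, and neither passed. The call at 500 nM was also lost when IFNg replicate 2 or any of the 3 libraries with IFNg and 500 nM was left out (-0.34 to -0.23), in DESeq2 (-0.27), with RLE scaling (-0.27, adjusted p = 0.0605) or library size as the only scaling (-0.26), without the count filter (-0.28, adjusted p = 0.0741) and with all 24 libraries in the fit (-0.28, adjusted p = 0.0525). For ABBV-075 with IFNg the order was the reverse, with 0.17 (SE 0.12, adjusted p = 0.243) as counted and 0.43 (SE 0.10, adjusted p = 0.000134) corrected. Without IFNg, PI4KA did not pass for ABBV-744 at 50 nM (0.16, adjusted p = 0.318) or 500 nM (0.26, adjusted p = 0.128). IFNg against DMSO gave 0.08, with an interval of -0.13 to 0.29.

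Reads that align equally well to PI4KA and to its partial copies PI4KAP1 and PI4KAP2 on chromosome 22 drop out of such counts. PI4KAP1 held 46 to 85 counts and PI4KAP2 20 to 44 in the 24 libraries. When the 3 genes were summed, an alternative added after the data were seen, the fall at 500 nM with IFNg was -0.19 and did not pass (adjusted p = 0.16), while that at 50 nM was -0.30 (adjusted p = 0.0124).

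Of the scaffolds, TTC7A made up nearly all of the measured RNA and TTC7B was close to the detection limit. TTC7A made up 96.6% to 98.4% of the summed TTC7 level per kilobase in the 8 group means. TTC7B had 2 to 12 counts in every library, 142 in all, and never reached the count filter. Unfiltered fits of TTC7B over the 11 pairwise comparisons ran from -0.54 to 0.35 on the log2 scale with no adjusted p below 0.534, and at these counts differences of that size were not detectable.

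For TTC7A the counts were 136, 189 and 155 in DMSO, 216, 157 and 152 with ABBV-075, 156, 187 and 144 with ABBV-744 at 50 nM, 160, 160 and 160 at 500 nM and 143, 123 and 133 with IFNg. IFNg with ABBV-075 gave 201, 201 and 181, IFNg with ABBV-744 147, 144 and 135 at 50 nM and 128, 163 and 188 at 500 nM. The 3 libraries with IFNg and ABBV-075 all exceeded the IFNg libraries, at 52.5 ± 2.86 CPM against 37.7 ± 1.45 (SD, n = 3 each). TTC7A rose there by 0.49 on the log2 scale (SE 0.13, adjusted p = 0.00127), or 0.74 after the GC correction (adjusted p = 5.36e-08). ABBV-744 at 500 nM with IFNg raised it by 0.39 (SE 0.14, adjusted p = 0.0186), a call lost without IFNg replicate 2 (0.37) or without replicate 3 of that treatment (0.28), and at 50 nM it was 0.03 (adjusted p = 0.866) as counted and 0.36 (adjusted p = 0.0167) corrected. Against DMSO, ABBV-744 at 50 nM gave 0.40 (SE 0.14, adjusted p = 0.0385) but 0.20 (adjusted p = 0.304) after correction. That call held in 1 of 6 fits that left out a library (0.27 to 0.47), the fit without replicate 1 of the treatment. At 500 nM it was 0.32 (adjusted p = 0.0867). Reads on the opposite strand, where MCFD2 overlaps, amounted to 4.36% of the TTC7A reads on either strand and were not counted.

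FAM126A and FAM126B, the stabilising subunits, were both higher with IFNg and an inhibitor than with IFNg. FAM126A had 152, 173 and 201 counts in DMSO and 129, 119 and 87 with IFNg. It had 504, 318 and 198 with ABBV-075, 486, 345 and 326 with IFNg and ABBV-075, 286, 234 and 256 with IFNg and ABBV-744 at 50 nM and 231, 230 and 251 at 500 nM. ABBV-744 alone gave 137, 66 and 126 counts at 50 nM and 114, 101 and 130 at 500 nM. Every library with IFNg and an inhibitor exceeded every DMSO, IFNg and ABBV-744-only library. The GC index divided these libraries in the same way, positive in the former and negative in the latter, and FAM126A is AT-rich. How many of all genes separate along this line was not counted. The ABBV-075 libraries without IFNg spread over 59.9 to 120 CPM.

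FAM126B counts were 147, 172 and 137 in DMSO, 108, 107 and 75 with IFNg, 130, 80 and 86 with ABBV-744 at 50 nM and 146, 103 and 129 at 500 nM. ABBV-075 gave 440, 246 and 153, and with IFNg 387, 314 and 278. IFNg with ABBV-744 gave 371, 282 and 291 at 50 nM and 247, 268 and 212 at 500 nM. As for FAM126A, the 9 libraries with IFNg and an inhibitor were above all libraries of DMSO, IFNg and ABBV-744 alone. The GC index divided them in the same way, and FAM126B is AT-rich as well. The ABBV-075 library with the lowest counts of both genes, replicate 3, was also the only one of that group with a negative GC index (-0.213), and replicate 1, the highest, had the largest index (0.772).

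Against IFNg, FAM126A rose by 1.72 with ABBV-075 (SE 0.13, adjusted p = 1.63e-13), by 1.14 with ABBV-744 at 50 nM (SE 0.13, adjusted p = 5.46e-09) and by 1.21 at 500 nM (SE 0.14, adjusted p = 1.2e-08) on the log2 scale. FAM126B rose by 1.69 (SE 0.14, adjusted p = 2.93e-13), 1.63 (SE 0.13, adjusted p = 3.49e-12) and 1.45 (SE 0.14, adjusted p = 7.5e-10) in the same order. The GC correction lowered these to 1.14, 0.37 and 0.60 for FAM126A and to 1.02, 0.75 and 0.74 for FAM126B, and all 6 still passed, the highest adjusted p being 0.0115 for FAM126A at 50 nM. Without IFNg, ABBV-744 left both below the threshold, at -0.31 and -0.30 for FAM126A at 50 and 500 nM and at -0.26 and 0.04 for FAM126B. IFNg alone gave -0.43 for each (adjusted p = 0.0813 for FAM126A and 0.0993 for FAM126B). FAM126A made up 36.3% to 46.1% of the summed FAM126 level per kilobase in the 8 group means.

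**Figure D2:**
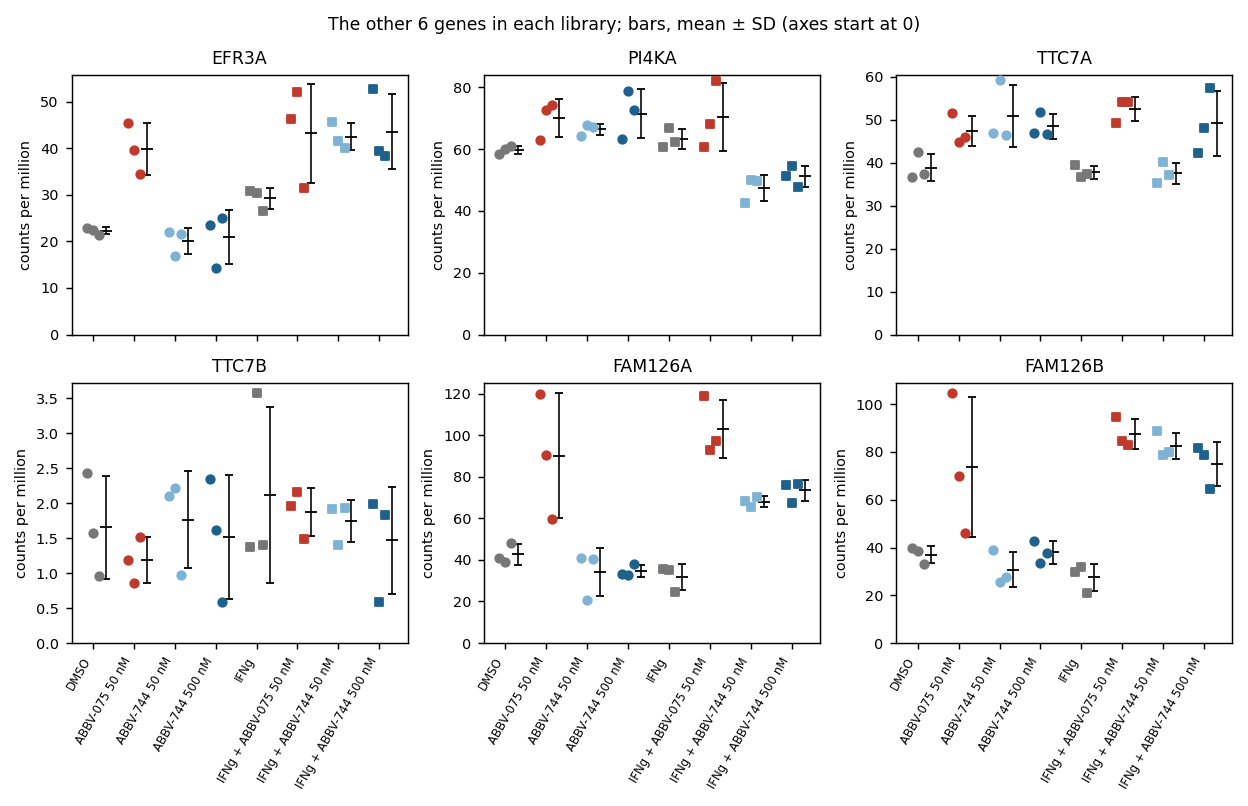
EFR3A, PI4KA, TTC7A, TTC7B, FAM126A and FAM126B in CPM in each library, by treatment group, on axes that start at 0. Points are libraries (circles without IFNg, squares with IFNg), bars the mean ± SD of 3. FAM126B is above 64 CPM in all 9 libraries with IFNg and an inhibitor and at 21 to 31.8 with IFNg, while PI4KA is lowest with IFNg and ABBV-744 and TTC7B stays at or below 3.57.

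Counted over the set, 5 of the 6 members tested were higher and 0 lower with IFNg and ABBV-075 against IFNg (EFR3B, EFR3A, TTC7A, FAM126A and FAM126B), where 28.2% of all genes tested were higher and 28.4% lower. TTC7B was the member not tested. ABBV-744 at 50 nM with IFNg had 3 of 5 higher and 1 lower, against 27.4% and 24.3% of all genes, and at 500 nM 5 of 6 higher and 1 lower, against 22.9% and 22.8%. In the counts for ABBV-075 and for ABBV-744 at 500 nM, EFR3B passed the count filter through the inhibitor libraries. Without IFNg, ABBV-744 had 1 of 6 higher at 50 nM (TTC7A), against 8.81% higher and 10.1% lower of all genes. At 500 nM no member besides EFR3B passed, against 7.48% and 7.8% of all genes. EFR3B is not read as a test there, as its low level in DMSO was part of the choice. With library size as the only scaling, these splits over all genes moved to 3.73% and 11% at 50 nM and to 4.27% and 9.59% at 500 nM, and TTC7A no longer passed. IFNg against DMSO called 0 of 5 in edgeR (3 with an unadjusted p under 0.05) and 0 of 7 in DESeq2, against 2.76% higher and 0.695% lower of all genes. FAM126A passed there without the count filter (-0.43, adjusted p = 0.0432), and FAM126A and FAM126B (-0.49 each) with library size as the only scaling, under which the split over all genes was 2.23% and 1.82%. In the contrast that led to the choice of EFR3B, 19.8% of all genes were higher and 19.6% lower, and nothing is read from it for the members.

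**Figure D3:**
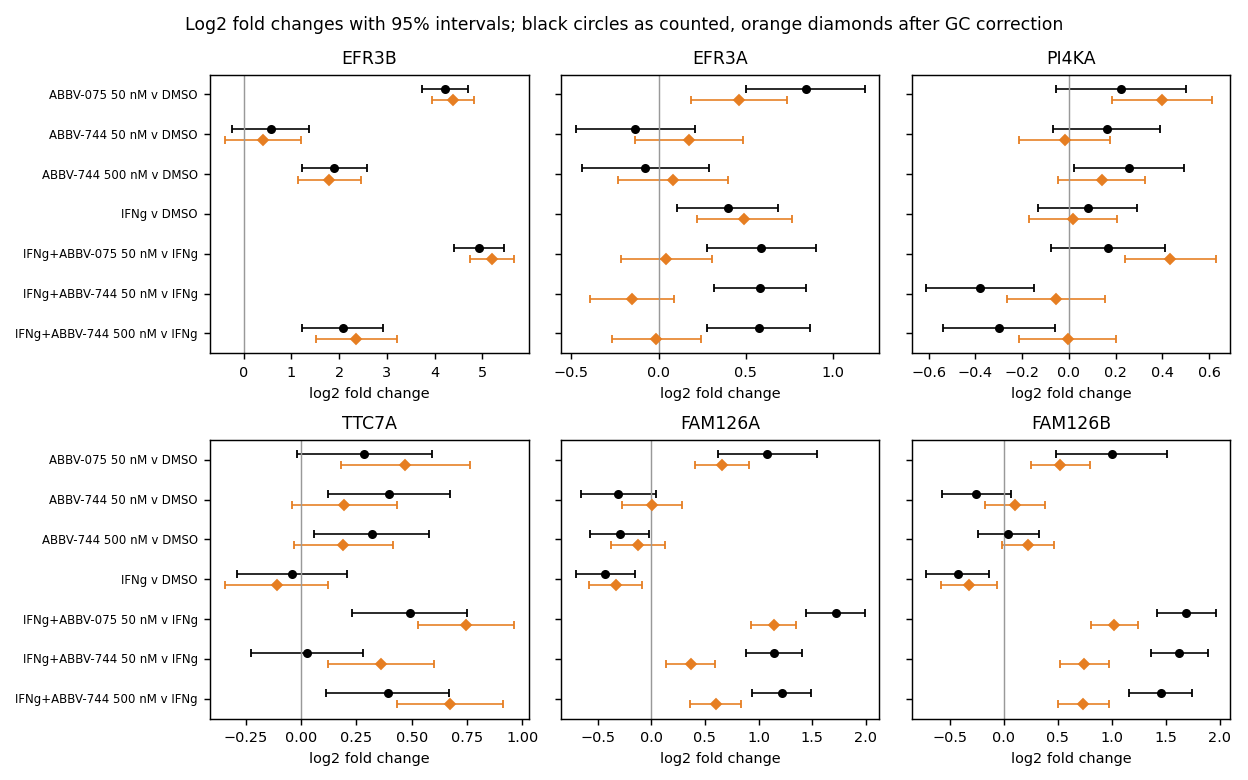
Log2 fold changes with 95% intervals of the 6 members tested, in 7 comparisons with DMSO or IFNg. Black circles are as counted and orange diamonds after the GC correction, and a comparison without a mark was below the count filter. EFR3B stays at 4.93 and 5.20 for ABBV-075 with IFNg, EFR3A goes from 0.59 to 0.04 there, and FAM126A and FAM126B shrink but stay above 0 in all 3 comparisons with IFNg as the control.

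By their medians, AT-rich genes were higher and GC-rich genes lower with IFNg and an inhibitor than with IFNg. For IFNg with ABBV-744 at 50 nM against IFNg, the median log2 fold change was 0.80 over 2075 genes with less than 40% GC and -0.33 over 3288 genes with at least 54% GC. With ABBV-075 these medians were 0.60 and -0.19, and with ABBV-744 at 500 nM 0.64 and -0.24. EFR3A, with 0.57 to 0.59, was thus just under the median of AT-rich genes for ABBV-075 and ABBV-744 at 500 nM and below it at 50 nM, and FAM126A and FAM126B were above it. PI4KA was near the median of GC-rich genes for ABBV-744, while EFR3B, PI4KA and TTC7A were above that median for ABBV-075. For ABBV-744, TTC7A was above it as well (0.03 at 50 nM and 0.39 at 500 nM), and so was EFR3B at 500 nM (2.07).

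**Figure D4:**
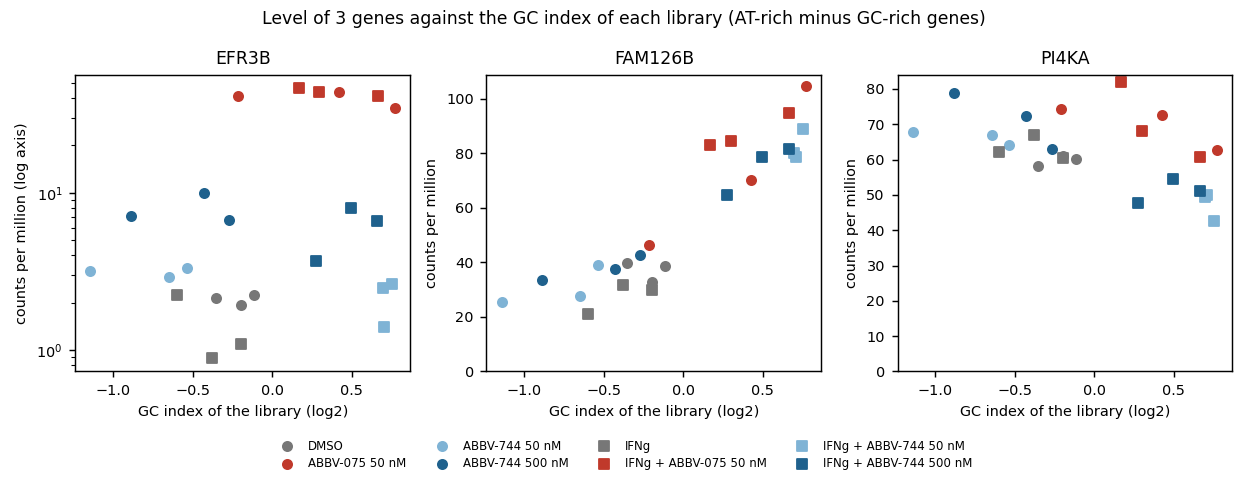
EFR3B (log axis), FAM126B and PI4KA in CPM against the GC index of each of the 24 libraries (median log2 deviation of AT-rich minus GC-rich genes), colored by inhibitor, with squares for IFNg. FAM126B is highest, at 105 CPM, in the ABBV-075 library with the largest index, 0.772, and lowest, at 21 CPM, in an IFNg library at -0.601, whereas EFR3B is at or above 34.8 CPM in all 6 ABBV-075 libraries, whose index runs from -0.213 to 0.772.

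Both inhibitors were given at 50 nM, which allows a comparison at the same dose, though the times are not in the labels. In IFNg-treated cells EFR3B was 4.35 higher on the log2 scale with ABBV-075 than with ABBV-744 (SE 0.22, adjusted p = 4.17e-20), 20.4-fold with an interval of 15.0 to 27.8. EFR3B passed the count filter there through the libraries with ABBV-075, as those with ABBV-744 held 11, 5 and 9 counts. PI4KA (0.62, SE 0.12, adjusted p = 5.8e-05), TTC7A (0.54, SE 0.12, adjusted p = 0.000471) and FAM126A (0.65, SE 0.10, adjusted p = 2.57e-06) were also higher with ABBV-075. For FAM126B the difference was 0.14, with an interval of -0.06 to 0.34, and for EFR3A 0.08, with an interval of -0.19 to 0.35. The 4 members called of 6, EFR3B among them, stand beside 33.7% of all genes, 16.7% higher and 17% lower. With library size as the only scaling the median of all genes moved to -0.12 and the split to 10.5% and 25.5%, and EFR3A was at -0.04. After the GC correction FAM126B also passed, with 0.28 (adjusted p = 0.0065), and the values of PI4KA, TTC7A and FAM126A were 0.50, 0.39 and 0.79. Without IFNg, in libraries that include those of the choice, EFR3B was 3.67 higher with ABBV-075 on the log2 scale, as a description, and 40.8% of all genes were called.

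Between the doses of ABBV-744, EFR3B was higher at 500 nM than at 50 nM by 1.33 on the log2 scale without IFNg (SE 0.32, adjusted p = 0.287) and by 1.49 with IFNg (SE 0.37, adjusted p = 0.0259). The libraries of the doses did not overlap in either background, and the first difference missed the threshold in a comparison where edgeR called 0 of 6 members (1 with an unadjusted p under 0.05), DESeq2 0 of 7, and 0.0274% of all genes were called. With the replicate number as a block in edgeR, the first difference passed (1.32, adjusted p = 0.00978), where 1.64% of all genes were higher and 1.28% lower. In the second, EFR3B was the member called of 6, against 1.7% of all genes, and it passed the count filter through the libraries at 500 nM. It was no longer called after the GC correction (1.41, adjusted p = 0.0605) or with all 24 libraries in the fit (1.46, adjusted p = 0.109). The call was also lost in 4 of 6 fits that left out a library (1.23 to 1.65 in those, without replicate 1, 2 or 3 at 50 nM or replicate 2 at 500 nM). DESeq2 did not test EFR3B there. The split over all genes was 1.41% higher and 0.29% lower, and 0.69% and 0.835% with library size as the only scaling. FAM126A and FAM126B differed between doses by 0.14 and -0.11 with IFNg, with intervals of -0.07 to 0.34 and -0.32 to 0.09.

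Whether IFNg altered the response to an inhibitor was asked with the difference of the differences. For ABBV-744 at 50 nM it was 1.85 for FAM126B (SE 0.21, adjusted p = 5.39e-08), 1.42 for FAM126A (SE 0.23, adjusted p = 1.35e-05), 0.69 for EFR3A (SE 0.20, adjusted p = 0.00508) and -0.57 for PI4KA (SE 0.15, adjusted p = 0.00229). At 500 nM it was 1.43 for FAM126B (SE 0.20, adjusted p = 2.14e-06), 1.53 for FAM126A (SE 0.19, adjusted p = 3.64e-07), 0.67 for EFR3A (SE 0.24, adjusted p = 0.0282) and -0.53 for PI4KA (SE 0.16, adjusted p = 0.00924). These 4 of 6 members stand beside 51.6% of all genes called at 50 nM and 33.5% at 500 nM. With library size as the only scaling the split over all genes went from 25% higher and 26.5% lower to 29.6% and 15.2% at 50 nM, and from 18.5% and 15% to 20.1% and 9.58% at 500 nM, while the median of all genes at 50 nM went from -0.14 to 0.04. The call of EFR3A at 500 nM was lost in 4 of 12 fits that left out a library, those without DMSO replicate 1, ABBV-744 replicate 2, IFNg replicate 3 or IFNg with ABBV-744 replicate 1 (0.47 to 0.65), and also in DESeq2 (0.69, adjusted p = 0.0504) and with all 24 libraries in the fit (0.67, adjusted p = 0.055). That of PI4KA at 500 nM was lost when it was summed with its pseudogenes (-0.36, adjusted p = 0.0601). GC-corrected, FAM126B remained at 50 nM (0.65, adjusted p = 0.00681) and FAM126A (0.73, adjusted p = 0.00227) and FAM126B (0.52, adjusted p = 0.0257) at 500 nM, while EFR3A (-0.33 and -0.09), PI4KA (-0.04 and -0.15) and, at 50 nM, FAM126A (0.36) did not. TTC7A at 500 nM, 0.09 as counted (adjusted p = 0.723), passed after the correction (0.48, adjusted p = 0.0316). EFR3B showed 0.05 at 50 nM and 0.20 at 500 nM, with wide intervals of -1.12 to 1.23 and -0.94 to 1.34. For ABBV-075, in a difference that contains the libraries of the choice, EFR3B had 0.70 with an interval of -0.19 to 1.59, and 0.0347% of all genes were called.

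Outside the complex, 91 other phosphoinositide genes were grouped by function. With IFNg and ABBV-075 against IFNg, 24 of the 70 tested rose and 15 fell (26 and 12 after the GC correction), where 28.2% of all genes were higher and 28.4% lower. With IFNg the counts were 17 higher and 13 lower of 69 for ABBV-744 at 50 nM, against 27.4% and 24.3% of all genes, and 14 and 16 of 69 at 500 nM, against 22.9% and 22.8%. ABBV-744 without IFNg called 8 higher and 8 lower of 68 at each dose, against 8.81% and 10.1% of all genes at 50 nM and 7.48% and 7.8% at 500 nM. IFNg against DMSO called 0 of 69 in edgeR (11 with an unadjusted p under 0.05), with 1 higher and 1 lower after the GC correction, against 2.76% and 0.695% of all genes. TMEM150A, the partner of EFR3 in the membrane, was the only one of 3 TMEM150 genes tested. It rose with ABBV-744 at 50 nM (0.51, SE 0.14, adjusted p = 0.0102) and 500 nM (0.47, SE 0.14, adjusted p = 0.022) against DMSO, and the former did not pass after the GC correction (0.28, adjusted p = 0.122). Added to IFNg, ABBV-075 (-0.0115) and ABBV-744 at 50 nM (-0.135) and 500 nM (-0.0238) left TMEM150A uncalled.

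The other PI 4-kinases and their Golgi partners gave 4 of 9 higher and 3 lower when ABBV-075 was added to IFNg, against 28.2% and 28.4% of all genes. Their median was -0.18 on the log2 scale, beside -0.003 over all genes. PI4K2B, a type II PI 4-kinase, was highest with 0.72 (SE 0.13, adjusted p = 9.73e-06), followed by ACBD3, a Golgi scaffold for PI4KB, with 0.60 (adjusted p = 0.00311). NCS1, a calcium sensor that binds PI4KB, fell by 0.89 and ARF1, the Golgi GTPase, by 0.66 (adjusted p = 0.000963 and 2.26e-08). After the GC correction PI4K2B (37.8% GC) was at 0.14 and did not pass (adjusted p = 0.223).

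Kinases that turn PI4P or PI5P into PI(4,5)P2 had 1 of 6 higher and 3 lower in that comparison, with a median of -0.19, where 28.2% of all genes were higher and 28.4% lower. PIP5K1C rose by 1.17 (SE 0.19, adjusted p = 1.34e-06), while PIP4K2A fell by 0.93, PIP5K1A by 0.53 and PIP4K2B by 0.38, the last at -0.11 and not called after the GC correction (adjusted p = 0.18). Phosphatases of PI4P and PI(4,5)P2 had 6 of 10 higher and 0 lower, against the same shares of all genes, with a median of 0.51. INPP5F, a PI4P phosphatase, rose by 1.58 (SE 0.21, adjusted p = 3.46e-08) and SYNJ1 by 1.36 (SE 0.22, adjusted p = 2.14e-06), while OCRL (0.32) and INPP5E (0.52) had the smallest called rises. After the GC correction 7 of these phosphatases were higher and 0 lower.

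Genes for lipid exchange at membrane contacts had 4 of 18 higher and 4 lower, with a median of 0.06, against 28.2% higher and 28.4% lower of all genes, shares that also stand beside the lists that follow. OSBPL8, which exchanges PI4P for phosphatidylserine, rose by 1.69 (SE 0.11, adjusted p = 1.18e-15) and by 0.98 corrected, whereas OSBP2 fell by 2.82 (SE 0.39, adjusted p = 8.51e-08). OSBPL11 rose by 0.75 and PITPNM2 fell by 0.56. Phosphatidylinositol synthesis had a median of -0.11 and 1 of 9 higher, IMPA1 with 1.00 (0.27 and not called after the GC correction), and 3 lower, LCLAT1 by 0.71, CDIPT, the synthase itself, by 0.30 and CDS2 by 0.26. After the GC correction CDIPT was at -0.08 (adjusted p = 0.43) and CDS2 at -0.07 (adjusted p = 0.415), and neither passed. Phospholipase C had a median of 0.19 and 2 of 7 higher, PLCD3 with 0.85 and PLCG2 with 0.59, and 1 lower, PLCH1 by 0.62.

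The 10 nearest protein-coding neighbours of EFR3B, 5 on each side, did not share its rise in size. With IFNg and ABBV-075 against IFNg, NCOA1, whose start lies at -550.8 kb from that of EFR3B, rose by 1.02 (SE 0.14, adjusted p = 4.92e-08), and DNMT3A, at 300.5 kb, fell by 1.24 (SE 0.22, adjusted p = 6.27e-06). DNAJC27, with the nearest start at -70.0 kb, was at 0.61 (SE 0.40, adjusted p = 0.188), and PTRHD1, CENPO, DTNB, ASXL2 and KIF3C lay between -0.20 and 0.25 and did not pass. POMC, at 126.8 kb, had no count in either group, and ADCY3, at -121.8 kb, stayed below the filter.

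**Figure D5:**
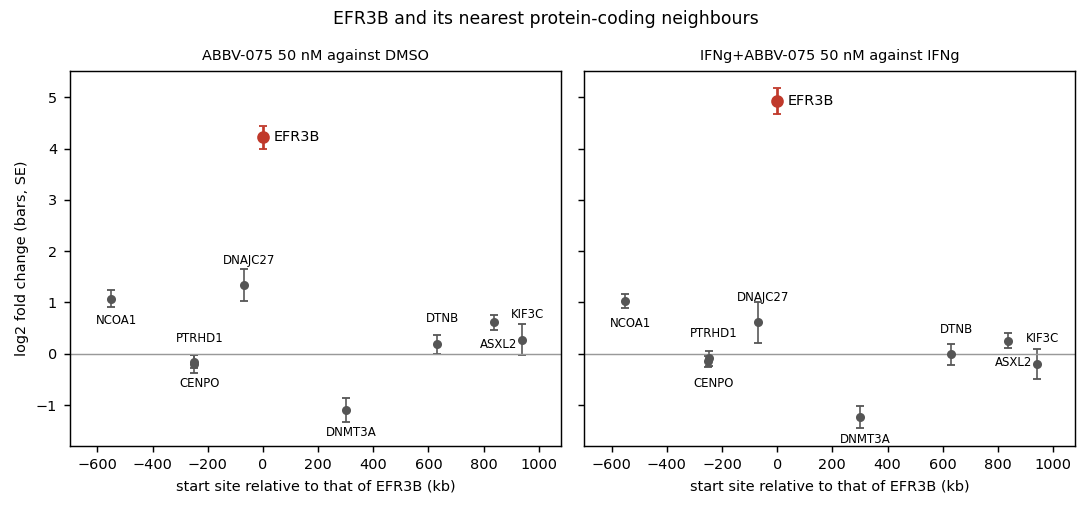
Log2 fold change (bars, SE) of EFR3B and its neighbours against the distance of their start sites from that of EFR3B in kb, for ABBV-075 against DMSO (left) and with IFNg against IFNg (right). EFR3B is at 4.22 and 4.93, and the 8 neighbours tested lie between -1.24 and 1.33.

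Over the 8 group means, the genes whose log2 CPM was most like that of EFR3B were KIAA0513 (Pearson r = 0.994), VAMP1 (0.991), LRCH4 (0.989), HTR7P1 (0.987) and SLC6A8 (0.985) among 11590 genes. The points share libraries and treatments, and the values describe likeness only. KIAA0513 went from 2.17 ± 0.37 CPM with IFNg to 11.7 ± 0.566 with IFNg and ABBV-075 and 4.08 ± 0.964 with IFNg and ABBV-744 at 500 nM (SD, n = 3 each). LRCH4 was at 10.7 ± 1.85, 31.2 ± 3.2 and 14.8 ± 2.12 CPM in the same groups. SLC6A8, the creatine transporter, was at 48.2 ± 2.85, 81.1 ± 4.49 and 55.1 ± 5.29. Most unlike were PPIL1 (-0.994), PALM (-0.993), KIAA1217 (-0.986), MGST2 (-0.985) and FREM1 (-0.983), and PPIL1 went from 99.6 ± 7.05 CPM with IFNg to 45.9 ± 1.09 with IFNg and ABBV-075. With a prior count of 0.5 in place of 2, HEXIM1 (0.986) took the place of SLC6A8 among the 5 most alike.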

How the data were processed

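HepG2 RNA was sequenced on an Illumina HiSeq2500 after ribosomal RNA depletion, with directional libraries, in 24 samples. The authors trimmed reads with Trimmomatic 0.33, aligned them with STAR 2.7.1 to hg38 and deposited raw read counts per gene symbol. CASAVA 1.8.2 and DESeq2 also stand in the submitters' processing notes, and the counting annotation is not given in the sources used here. The count column of the transcribed strand was used, and the 4 summary lines of unassigned reads were kept out of library sizes.

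Comparisons were fitted with edgeR 4.0.16 in R 4.3.3 (quasi-likelihood test, filterByExpr, TMM scaling) on the groups compared, with Benjamini-Hochberg adjustment over all genes tested. A gene passed at an adjusted p of at most 0.05, and SE and 95% intervals come from the same fit. Alternatives were DESeq2 1.42.0, other scalings, filters and sample sets, a replicate block, counts of both strands, a log2 fold change of at least 1.5 as in the study, and offsets from a lowess curve (span 0.3) of counts on transcript GC share, taking the longest transcript per gene. Of the symbols, 24545 matched GENCODE 44, 1384 of them by an older symbol, FAM126A and FAM126B (HYCC1 and HYCC2) among these. CPM were also divided by exon length. Scripts were tested on simulated data. Counts of replicates differed by more than sampling noise (chi-square per degree of freedom 1.66 to 16.6), so none was taken for a duplicate.

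The members, the 8 phosphoinositide lists and the tests were chosen with earlier results of these data known. The values of 1 list are not reported here. Named from each list were the 2 genes with the highest and the 2 with the lowest log2 fold change among those that passed with IFNg and ABBV-075 against IFNg. The 5 nearest genes on each side of EFR3B, and the 5 most and 5 least like it over group means of log2 CPM (prior count 2), were also named.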

Additional observations from a re-analysis of the deposited data

Results flagged for a closer look

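For 4 members of 6 tested the response to ABBV-744 differed between cells with and without IFNg, by the interaction term in edgeR over 4 groups of 3 libraries. Of all genes tested, 51.6% were called in this way at 50 nM and 33.5% at 500 nM. At 50 nM the difference of log2 fold changes was 0.69 for EFR3A, -0.57 for PI4KA, 1.42 for FAM126A and 1.85 for FAM126B, and at 500 nM it was 0.67, -0.53, 1.53 and 1.43 in the same order. After the GC correction these values were -0.33, -0.04, 0.36 and 0.65 at 50 nM, where FAM126B alone passed, and -0.09, -0.15, 0.73 and 0.52 at 500 nM, where FAM126A and FAM126B passed. Over all genes, the median interaction at 50 nM was 1.11 for genes with less than 40% GC and -0.59 for genes with at least 54% GC, and at 500 nM 0.84 and -0.36. The part of base composition in these values beyond the correction was not tested.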

How the results depend on the processing

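For ABBV-075 with IFNg against IFNg, EFR3B kept its direction and its call under every alternative that tested it (4.70 to 5.41). The same held for ABBV-744 at 500 nM with IFNg against IFNg (1.82 to 2.56). A minimum of 10 counts in every library removed EFR3B from both. In both, EFR3B passed the count filter through the inhibitor libraries, so a kept call is not read as further support. As a description, 500 nM against DMSO gave 1.70 to 2.01. Of 82 log2 fold changes of members, the GC correction reversed 14, in 4 of which, all EFR3A, a call was also lost. It strengthened 8 past the threshold and took 9 others below it. These tallies include the comparisons with the ABBV-075 libraries without IFNg, from which nothing is read for the members. The cause of each change was not tested.

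Requiring a log2 fold change of at least 1.5 left 3 of 5 members for ABBV-075 with IFNg against IFNg. There 2.41% of all genes passed as higher and 3.75% as lower. Against ABBV-744 with IFNg it left 1 of 4, beside 0.36% and 1.13% of all genes. ABBV-744 with IFNg kept 1 of 4 at 50 nM (1.94% and 0.368% of all genes) and 1 of 6 at 500 nM (1.29% and 0.82%). ABBV-744 at 50 nM against DMSO kept 0 of 1 (0.09% and 0.189%). Between doses with IFNg 0 of 1 remained (0.00907% and 0%). In each ABBV-744 interaction 1 of 4 remained, beside 5.8% and 0.637% at 50 nM and 2.82% and 0.254% at 500 nM. For ABBV-744 at 50 nM against DMSO the 1 member called became 0 in DESeq2 (6.36% of all genes higher and 7.13% lower) and with library size only (3.73% and 11%). The count was also 0 with both strands (8.13% and 9.11%), the GC correction (5.61% and 5.15%) and the replicate block (5.96% and 7.73%). A minimum of 10 counts removed EFR3B at 500 nM against DMSO, where it is given as a description. For IFNg against DMSO, 0 became 2 with library size only (2.23% of all genes higher and 1.82% lower). It became 1 without the filter (2.1% and 0.684%) and 1 with the GC correction (3.41% and 1.13%). Between doses with IFNg, 1 became 0 in DESeq2 and with a minimum of 10 counts, both of which left EFR3B untested. With all 24 libraries (0.00856% of all genes higher and 0.00856% lower) and with the GC correction (0.798% and 0.0998%) 1 also became 0. The GC correction left 1 of 4 in the interaction at 50 nM, beside 9.4% higher and 11.1% lower of all genes.

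The GC correction reversed EFR3A (0.17), PI4KA (-0.02), FAM126A (0.01) and FAM126B (0.10) for 50 nM against DMSO, EFR3A (0.08) for 500 nM against DMSO, EFR3A with IFNg at 50 nM (-0.15) and 500 nM (-0.01), TTC7A between inhibitors (0.29), EFR3A (-0.09) and FAM126A (-0.12) between doses, PI4KA (0.04) in the ABBV-075 interaction, EFR3A (-0.33) and TTC7A (0.16) in that of 50 nM and EFR3A (-0.09) in that of 500 nM. Library size only reversed FAM126B at 500 nM against DMSO (-0.03) and EFR3A between inhibitors (-0.04) and doses (-0.02) with IFNg. Both strands gave TTC7A -2.8e-05 at 50 nM with IFNg.

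Leaving out 1 library reversed 22 of 597 member values. Member counts then ran from 0 to 2 for 50 nM against DMSO and from 1 to 2 for 500 nM against DMSO. The latter include EFR3B, which is only described there. They ran from 0 to 1 for IFNg against DMSO and from 0 to 2 between doses with IFNg. Shares over all genes were not taken in the fits that left out a library. In the ABBV-075 interaction, which contains the libraries of the choice and from which nothing is read, member counts ran from 0 to 2. Log2 fold changes that reversed ran from -0.22 to 0.12 (EFR3A) and -0.05 to 0.12 (FAM126B) for 500 nM against DMSO, -0.08 to 0.03 (TTC7A) for IFNg, -0.04 to 0.06 (TTC7A) for 50 nM with IFNg, -0.15 to 0.04 (TTC7A) and, with IFNg, -0.07 to 0.25 (EFR3A) between inhibitors, -0.08 to 0.26 (EFR3A), -0.14 to 0.06 (TTC7A) and -0.23 to 0.17 (FAM126A) between doses, -0.09 to 0.13 (EFR3A) between doses with IFNg, and -0.20 to 0.02 (PI4KA), -0.17 to 0.54 (EFR3B at 50 nM), -0.06 to 0.69 (EFR3B at 500 nM) and -0.03 to 0.18 (TTC7A at 500 nM) in the interactions.

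The replicate numbers were not shown to pair libraries: in no comparison did all 3 same-numbered pairs of deviations correlate above 0.1. The nearest was ABBV-744 at 500 against 50 nM (0.25, 0.33 and 0.06), where every library correlated best with its own number. With the replicate block, EFR3B passed there (1.32, adjusted p = 0.00978), members called went from 0 to 1 and all genes called to 180 higher and 140 lower, and for 50 nM against DMSO members called went from 1 to 0. The block changed no other call of a member. EFR3B counts of 3 to 11 in the groups without a rise limit the precision of their differences, and TTC7B could not be judged at 2 to 12 counts.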
